A study of Mus musculus with 9 samples.

Results

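Methionine is recycled through a short loop of enzymes, and 9 genes of that loop were followed here in tumors grown from an endothelial cell line. S-adenosylmethionine, made from methionine, donates a methyl group and becomes S-adenosylhomocysteine, which is split to homocysteine, and homocysteine is then either methylated back to methionine or passed on towards cysteine. Most tissues remethylate homocysteine with methionine synthase, which uses folate and cobalamin, whereas the liver also uses betaine, a product of choline oxidation, as the methyl donor. The liver likewise has its own form of the enzyme that makes S-adenosylmethionine, and it is the main site of glycine N-methyltransferase, which consumes surplus S-adenosylmethionine.

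The 9 genes were those whose symbols were listed beforehand, namely Bhmt, Bhmt2, Mat1a, Mat2a, Mat2b, Ahcy, Gnmt, Mtr and Cbs, and they stand among 24421 genes in the count table. The list set genes known as liver forms (Bhmt, Mat1a and Gnmt) against genes used by most tissues (Mat2a, Mtr and Ahcy). Members were chosen by their place in the pathway and with earlier values of this same comparison in view, the fold changes of Bhmt and Mat1a among them. The differences between treated and vehicle tumors are therefore given below as descriptions of these 9 genes. Calls from the fit over all genes are counted beside them as background, and they are no independent test of the members.

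RNA was sequenced from 9 allograft tumors of bEnd.3 in the flank of male Nu/Nu nude mice, which lack a thymus. This single mouse line consists of endothelial cells immortalized with middle T antigen of polyomavirus. Of these, 4 tumors came from mice given vehicle (ethanol in buffered saline) and 5 from mice given R-propranolol, the stereoisomer with little activity at the beta-adrenergic receptor, at 6 mg/kg per day. Both were injected into the peritoneum 5 times per week. The comparison asked which transcripts differ when tumors are exposed to the R isomer alone. Each tumor is a mixture of transplanted cells and host tissue, and in such bulk samples fewer cells of a type and less RNA per cell cannot be told apart.

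Total counts over genes lay between 20599900 and 27852600 per tumor. All 11 endothelial marker genes had counts in every tumor, with a summed level between 478 and 1011 CPM (counts scaled by the TMM method to libraries of equal size). R-propranolol replicate 5 stood apart, because 15.6% of its counts fell on 20 skeletal muscle genes, which held 0.00400% to 0.0598% in the other 8 tumors. Its 9 adipocyte genes summed to 5264 CPM against 124 to 447 CPM elsewhere. R-propranolol replicate 2 was the next most distant, with a chi-square per gene of 135 to 162 against replicates 1, 3 and 4, which differed from each other by 17.8 to 41.2. Of the endothelial genes, 10 of 11 had a higher mean in treated tumors (median log2 fold change 1.06, or 0.37 with all 11 higher without replicate 5), and their part in the results below was not tested. Values without replicate 5 are given where they differ. Vehicle replicates 1 and 2 share a number in their titles whose meaning is not stated, and they were kept as separate samples, as labelled.

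Members of this loop include isozymes whose coding sequences are close, so it matters whether sequencing reads can tell them apart. Bhmt, betaine-homocysteine methyltransferase, and its neighbor Bhmt2, which uses S-methylmethionine in place of betaine, were 75.4% identical over 1088 aligned coding bases. The stretch in which they are most alike is shown because it limits how far the counts of this pair can be separated. Capitals mark the longest run shared by both, 59 bases, within windows of 90 bases from coding positions 865 to 954 of Bhmt and 838 to 927 of Bhmt2 (GENCODE M21, counted from the start codon).

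Bhmt: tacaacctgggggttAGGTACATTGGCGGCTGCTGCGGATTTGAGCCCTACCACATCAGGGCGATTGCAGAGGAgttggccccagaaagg
Bhmt2: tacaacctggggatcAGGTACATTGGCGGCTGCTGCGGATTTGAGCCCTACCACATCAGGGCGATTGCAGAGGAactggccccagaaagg

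Mat1a and Mat2a, the liver and general catalytic subunits of methionine adenosyltransferase, were 73.6% identical over 1182 aligned coding bases. Their longest shared run was 15 bases, again in capitals, within windows from coding positions 309 to 398 of Mat1a and 306 to 395 of Mat2a.

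Mat1a: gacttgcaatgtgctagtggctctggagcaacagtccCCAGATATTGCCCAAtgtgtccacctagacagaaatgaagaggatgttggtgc
Mat2a: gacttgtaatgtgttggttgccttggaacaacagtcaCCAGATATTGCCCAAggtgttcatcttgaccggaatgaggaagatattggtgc

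The 90-base windows differed at 4 bases between Bhmt and Bhmt2 and at 17 bases between Mat1a and Mat2a. Each shared run is shorter than 1 mate of the read pairs, which were 150 bases long. How many reads with several possible places the counting left out for each gene is not known, so the small counts of Bhmt2 beside Bhmt remain uncertain.

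The members spanned a wide range of levels. On the FPKM scale, CPM divided by kilobases of merged exons, levels of different genes can be compared. The median over 9 tumors was 62.4 FPKM for Mat2a. It was 12.8 for Ahcy, 7.87 for Mat2b and 3.01 for Mtr, the other enzymes that most tissues use. The genes known as liver forms were low, at 0.559 for Gnmt, 0.167 for Mat1a and 0.0736 for Bhmt.

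Cbs, cystathionine beta-synthase, which commits homocysteine to cysteine, had a median of 0.0219 FPKM, and Bhmt2 had 0.0156 FPKM. In this order the ranges over tumors were apart between Mat2a and Ahcy, between Mat2b and Mtr, and between Mtr and Gnmt. The other neighbors overlapped in range. With the length of the longest coding transcript in place of merged exons, a choice made after the data were seen, Mat2b (19.2 FPKM) stood above Ahcy (14.2 FPKM) and Bhmt stood at 0.170 FPKM, since the annotation of Bhmt holds a long transcript that is not coding.

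The 250 bases before the annotated start also differed between the most abundant member and a scarce one. In RefSeq promoters on GRCm38.p6, the sequence before Mat2a held 29 CG pairs, more than in 93.2% of 32851 promoters, and the one before Gnmt held 6, equal to the median. They are shown with CG in capitals, on the minus strand, for Mat2a at chr6:72439557-72439806 and for Gnmt at chr17:46729166-46729415.

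Mat2a: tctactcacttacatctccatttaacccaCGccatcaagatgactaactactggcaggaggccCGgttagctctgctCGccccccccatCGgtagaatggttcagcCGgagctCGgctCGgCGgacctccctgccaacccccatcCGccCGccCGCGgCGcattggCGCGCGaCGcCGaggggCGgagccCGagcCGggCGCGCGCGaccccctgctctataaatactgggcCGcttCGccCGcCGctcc
Gnmt: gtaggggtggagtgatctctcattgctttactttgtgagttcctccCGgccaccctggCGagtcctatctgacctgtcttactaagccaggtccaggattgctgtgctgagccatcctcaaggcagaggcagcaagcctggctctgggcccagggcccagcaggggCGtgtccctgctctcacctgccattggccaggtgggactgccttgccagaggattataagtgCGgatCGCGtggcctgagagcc

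Among the other promoters read, CG pairs numbered 20 for Mtr, 13 for Mat2b, 9 for Ahcy and 5 for Bhmt. These windows lie before the RefSeq start, which can differ from that of GENCODE M21. By GENCODE, the whole Mat2b window, 203 bases of the Bhmt window and 33 bases of the Cbs window lay inside the gene. The scarce members Bhmt2 and Cbs held 20 and 21, so the number of CG pairs did not order the members by level. A promoter was read for 8 of the 9 members, all except Mat1a.

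Of the 9 members, 7 had enough counts for the comparison over 13901 genes, and Bhmt2 and Cbs did not. Mat1a passed that filter through R-propranolol replicates 1, 2, 3 and 5, and vehicle replicate 2 was above its cutoff too. Bhmt passed it through R-propranolol replicates 1, 2 and 3 together with vehicle replicate 2. For both genes the filter thus favored a higher level in treated tumors without fixing it. In edgeR's quasi-likelihood test with Benjamini-Hochberg adjustment, 0 members and 0 of all genes (0%) were called at 0.05. Before adjustment 320 genes (2.30%) fell under 0.05, of which 280 were higher (2.01%) and 40 lower (0.288%), and Bhmt and Mat1a were the 2 members among the higher ones. DESeq2 called 2 genes (0.0152% of 13131), which were Dusp1 and Egr1 and not members, and limma-voom with quality weights called 0. Of the 7 members, 5 had a log2 fold change above 0, beside 54.3% of all genes. Since the list was drawn up with this contrast in view, nothing is read from these counts.

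**Figure D1:**
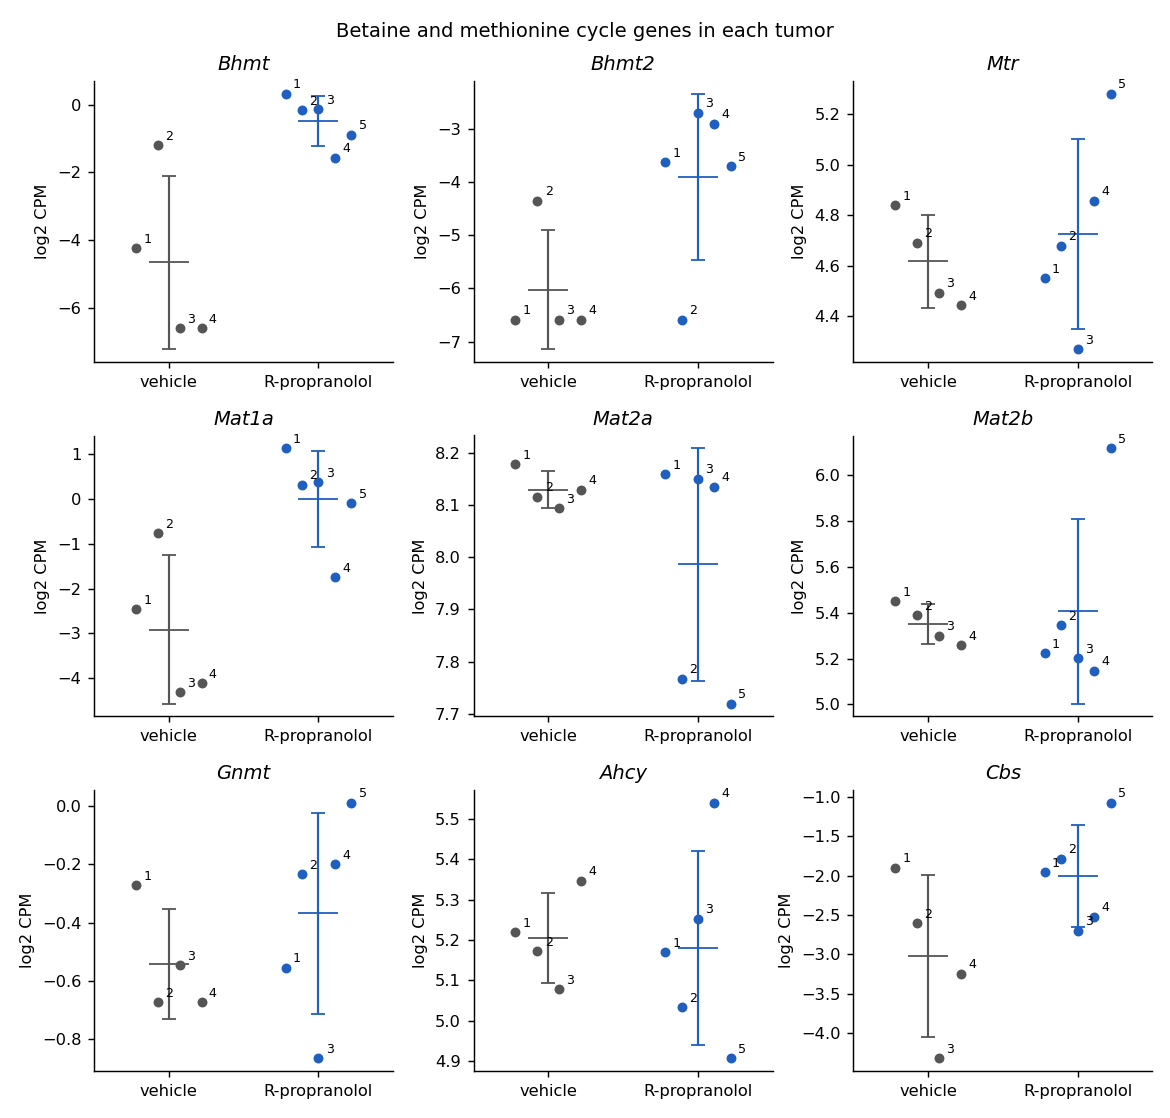
Level of each of the 9 genes in every tumor, as log2 CPM with a prior count of 0.25, for 4 vehicle and 5 R-propranolol tumors, with points numbered by replicate and bars at the mean ± SD. The vertical axis differs between panels. Bhmt and Mat1a lie higher in most treated tumors with vehicle replicate 2 near them, and replicate 5 of the treated group is the highest point for Mtr and Mat2b and the lowest for Mat2a and Ahcy.

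Homocysteine is methylated back to methionine by Bhmt, Bhmt2 or Mtr. Bhmt lies on the minus strand of chromosome 13 (GRCm38, 93616675 to 93637961), with Bhmt2 just upstream of it (93655720 to 93674302). Bhmt had 1, 11, 0 and 0 counts in vehicle replicates 1 to 4 and 35, 22, 25, 8 and 8 counts in R-propranolol replicates 1 to 5. These are 0.0430, 0.424, 0 and 0 CPM against 1.24, 0.881, 0.898, 0.328 and 0.532 CPM. The groups overlapped, because vehicle replicate 2 lay above R-propranolol replicate 4, and the other vehicle tumors were at or near 0.

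A count of 0 allows up to 0.119 CPM in vehicle replicate 3 and 0.142 CPM in replicate 4, from 3 counts in each, for counting error only. The mean of Bhmt was 0.117 ± 0.206 CPM (SD, n = 4) in vehicle tumors and 0.775 ± 0.352 CPM (SD, n = 5) in treated tumors, a log2 fold change of 2.64 (SE 1.01). One vehicle tumor carried most of the vehicle mean, and without vehicle replicate 2 the log2 fold change of Bhmt was 5.32 (SE 0.92). That value rests on vehicle counts of 1, 0 and 0, so its size is not reliable. Bhmt shares 187 exon bases with an antisense transcript, and no source used here gives the strand setting of the counting.

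Bhmt2 had 0, 1, 0 and 0 counts in vehicle tumors and 2, 0, 4, 3 and 1 counts in treated tumors. At no more than 4 counts in a tumor, no fold change is given for it.

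Mtr, methionine synthase, lies on chromosome 13 (12182712 to 12258113). Its levels were 28.6, 25.8, 22.5 and 21.7 CPM in vehicle tumors and 23.4, 25.6, 19.3, 29.0 and 38.9 CPM in treated tumors. The groups overlapped throughout, with R-propranolol replicate 5 the highest and replicate 3 the lowest of all 9 tumors. The log2 fold change of Mtr was 0.14 (SE 0.21), and -0.024 (SE 0.14) without R-propranolol replicate 5. Its sign also turned with library size in place of TMM (-0.028), so no direction is given for Mtr.

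S-adenosylmethionine is made by Mat1a in liver and by Mat2a, with its regulatory subunit Mat2b, in most other tissues. Mat1a lies on the plus strand of chromosome 14 (41105035 to 41124412). It had 4, 15, 1 and 1 counts in vehicle tumors and 62, 31, 36, 7 and 14 counts in treated tumors. On the CPM scale these were 0.172, 0.578, 0.0397 and 0.0475 against 2.19, 1.24, 1.29, 0.287 and 0.931. As for Bhmt, vehicle replicate 2 lay above R-propranolol replicate 4 and below the other 4 treated tumors.

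The mean of Mat1a was 0.209 ± 0.253 CPM (SD, n = 4) in vehicle tumors and 1.19 ± 0.688 CPM (SD, n = 5) in treated tumors. Its log2 fold change was 2.46 (SE 0.83), 3.70 without vehicle replicate 2 and 2.45 without R-propranolol replicate 2. Leaving out R-propranolol replicate 5 moved it to 2.52 for Mat1a and to 2.73 for Bhmt, so both values were at least as large without the tumor rich in muscle and fat transcripts. Of all genes tested, 4.88% had a log2 fold change of 2 or more, and Bhmt and Mat1a were the 2 members among them, from which nothing is read because their values were known when the list was made.

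Mat2a, on chromosome 6 (72432799 to 72439558), was by far the most abundant member. Its levels were 290, 278, 273 and 280 CPM in vehicle tumors and 286, 218, 284, 281 and 211 CPM in treated tumors. R-propranolol replicates 2 and 5 lay below every vehicle tumor, and the other 3 treated tumors lay within the vehicle range. The log2 fold change of Mat2a was -0.13 (SE 0.13), -0.07 (SE 0.10) without replicate 5 and -0.075 (SE 0.12) without replicate 2. Of its exon bases, 508 are shared with Particl, a transcript on the other strand.

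Mat2b, on chromosome 11 (40679314 to 40695203), had 43.7, 41.9, 39.4 and 38.3 CPM in vehicle tumors and 37.3, 40.7, 36.8, 35.4 and 69.4 CPM in treated tumors. R-propranolol replicate 5 stood alone above all other tumors, while replicates 1, 3 and 4 lay just below the vehicle range. The log2 fold change of Mat2b was 0.11 (SE 0.21) with all tumors and -0.12 (SE 0.07) without replicate 5, so its sign rested on that tumor.

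S-adenosylmethionine is used up by Gnmt, glycine N-methyltransferase, and the product of methylation is cleared by Ahcy, S-adenosylhomocysteine hydrolase. Although Gnmt was listed with the liver forms, it did not share the pattern of Bhmt and Mat1a. Gnmt, on chromosome 17 (46725664 to 46729168), had 19, 16, 17 and 13 counts in vehicle tumors and 19, 21, 15, 21 and 15 counts in treated tumors. The mean level of Gnmt was 0.681 ± 0.0948 CPM (SD, n = 4) against 0.782 ± 0.179 CPM (SD, n = 5), with a log2 fold change of 0.19 (SE 0.26). The groups overlapped, with R-propranolol replicate 3 the lowest of all tumors and replicate 5 the highest. From these few counts, the SE leaves room for a change in either direction.

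Ahcy, on chromosome 2 (155059310 to 155074497), had 37.2, 36.0, 33.8 and 40.7 CPM in vehicle tumors and 36.0, 32.7, 38.1, 46.5 and 30.0 CPM in treated tumors. Values of the treated group reached both above and below those of the vehicle group. The log2 fold change of Ahcy was -0.01 (SE 0.14), and it changed sign between settings.

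Cbs, the entry to transsulfuration, lies on chromosome 17 (31608894 to 31637238). It had 6, 4, 1 and 2 counts in vehicle tumors and 7, 7, 4, 4 and 7 counts in treated tumors, and the groups overlapped. Its mean was 0.137 ± 0.0935 CPM (SD, n = 4) against 0.260 ± 0.128 CPM (SD, n = 5), and with at most 7 counts in a tumor no order between the groups can be read from Cbs.

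No member had groups that did not overlap, whereas 175 of all genes tested (1.26%) did, 88 of them higher (0.633%) and 87 lower (0.626%). The spread within a group also set the members apart. In vehicle tumors the SD was 2.50% of the mean for Mat2a, 6.06% for Mat2b, 7.80% for Ahcy, 12.9% for Mtr and 13.9% for Gnmt. It was 121% for Mat1a and 176% for Bhmt, where single tumors held most of the counts.

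Ratios within a tumor do not depend on the scaling between libraries. Mat1a was 0.0769%, 0.269%, 0.0188% and 0.0219% of the FPKM of Mat2a in vehicle tumors. In treated tumors it was 0.990%, 0.737%, 0.589%, 0.132% and 0.571%. Mat1a thus stayed below 1% of Mat2a in all 9 tumors, treated or not, and vehicle replicate 2 again exceeded R-propranolol replicate 4.

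Bhmt relative to Mtr gave a like picture. It was 0.223%, 2.43%, 0% and 0% of the FPKM of Mtr in vehicle tumors and 7.81%, 5.09%, 6.90%, 1.68% and 2.02% in treated tumors. With the longest coding transcript as the length of Bhmt, the median in treated tumors was 11.5% in place of 5.09%. Mat2b was 12.3% to 13.6% of Mat2a in vehicle tumors and 11.3% to 29.6% in treated tumors, where the highest value was that of replicate 5 and the others lay between 11.3% and 16.7%.

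**Figure D2:**
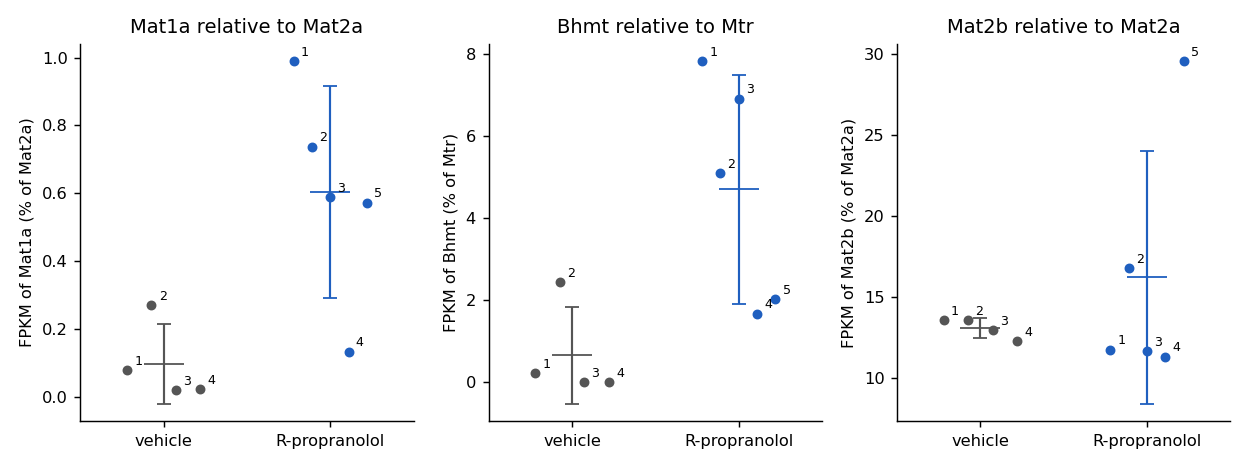
Ratio of FPKM of 2 members within each tumor, in percent, for Mat1a over Mat2a, Bhmt over Mtr and Mat2b over Mat2a, with tumors numbered by replicate and bars at the mean ± SD of 4 vehicle and 5 R-propranolol tumors. Mat1a does not pass 1% of Mat2a in any tumor, and for Mat2b only replicate 5 of the treated group lies far from the rest, at 29.6%.

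Likeness to Bhmt was measured over the 9 tumors as the Pearson correlation of log2 CPM and is given as a description, since all genes share the same libraries and their depth. The 5 tested genes closest to Bhmt were Cps1 (r = 0.983), the urea cycle enzyme carbamoyl phosphate synthetase, Mat1a (0.976), the apolipoprotein Apoa1 (0.974), the secreted glycoprotein Ahsg (0.965) and the fibrinogen chain Fga (0.962). Those closest to Mat1a were Bhmt (0.976), Cps1 (0.958), the protease inhibitor Serpina1a (0.955), Apoa1 (0.951) and Fga (0.951). Apart from the members, each of these is 1 of the 40 genes listed as hepatocyte markers.

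Among the 28 hepatocyte genes tested, 19 were among the 100 genes closest to Bhmt out of 13901 tested, and also 19 among the 100 closest to Mat1a. The median r of the hepatocyte genes was 0.882 with Bhmt and 0.898 with Mat1a, against 0.017 for all genes with either. The other members were far from Bhmt, with r of 0.20 for Mtr, 0.15 for Gnmt, 0.12 for Mat2b, -0.16 for Ahcy and -0.31 for Mat2a. Bhmt had no more than 1 count in 3 vehicle tumors, and these tumors weigh in every r. Several hepatocyte genes, such as Cps1, Fga and Serpina1a, were also near 0 there and passed the filter on counts through treated tumors. For such genes a high r was favored in advance, and nothing is concluded from it.

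Most hepatocyte genes tested also had higher means in treated tumors. They numbered 25 of 28, beside 54.3% of all genes, and 12 of them fell under 0.05 before adjustment, beside 2.01% of all genes in this direction. Several of them, such as Cps1, Fga and Serpina1a, were at or near 0 in most vehicle tumors and passed the filter on counts through treated tumors. For these genes a higher level in treated tumors was favored in advance, and the counts support nothing. The other 3, Apob, Itih2 and Asgr1, had lower means, and without R-propranolol replicate 5 Itih2 turned higher and Cyp2e1 lower. Their median log2 fold change was 2.15, or 1.74 without R-propranolol replicate 5. Albumin (Alb), the most abundant plasma protein, had 23, 589, 15 and 30 counts in vehicle tumors and 1553, 661, 822, 315 and 312 counts in treated tumors. Alb was thus high in vehicle replicate 2, the vehicle tumor with the most Bhmt and Mat1a.

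The number of hepatocyte genes at 0 counts was 2 to 11 in vehicle tumors and 0 to 4 in treated tumors. The transcription factor Hnf4a was at 0 in vehicle replicates 1, 3 and 4, and the urea cycle enzyme Otc was at 0 in these and in R-propranolol replicates 4 and 5. The summed level of all 40 was 284 to 402 CPM in vehicle tumors and 281 to 966 CPM in treated tumors, but Hp, Apob, Trf and Arg1, the 4 with the highest mean, made up most of it in every tumor. Without those 4, a choice made after the data were seen, the sum was 24.4, 65.5, 35.8 and 25.1 CPM in vehicle tumors and 150, 69.6, 83.5, 41.9 and 337 CPM in treated tumors. Neither sum followed Bhmt throughout, since the shorter one was highest in R-propranolol replicate 5, where Bhmt was lower than in replicates 1, 2 and 3. Of the 337 CPM in that tumor, Cyp2e1 alone made up 243 CPM. Without Cyp2e1 the sum of replicate 5 fell below that of replicate 1 but stayed above those of replicates 2 and 3. The mismatch with Bhmt thus remained for these tumors. Among the 28 tested, only Hpx, the heme-binding plasma protein hemopexin, had groups that did not overlap, beside 0.633% of all genes in this direction. It had at most 1.61 CPM in vehicle tumors and at least 1.72 CPM in treated tumors.

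Ratios to Alb were read within each tumor. Bhmt stood at 1.87 per 100 Alb counts in vehicle replicate 2 (exact 95% interval 0.927 to 3.37). The ratio was 2.25 in R-propranolol replicate 1 (1.56 to 3.15), 3.33 in replicate 2 (2.07 to 5.08) and 3.04 in replicate 3 (1.96 to 4.52). Replicates 4 and 5 had 2.54 (1.09 to 5.07) and 2.56 (1.10 to 5.12), so these 6 intervals overlapped, for counting error only. The other vehicle tumors had 15 to 30 Alb counts and at most 1 of Bhmt, which leaves intervals of 0.106 to 26.8 in replicate 1, up to 27.9 in replicate 3 and up to 13.1 in replicate 4.

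Mat1a per 100 Alb counts was 17.4, 2.55, 6.67 and 3.33 in the vehicle tumors and 3.99, 4.69, 4.38, 2.22 and 4.49 in the treated tumors. Its ratio was not the same throughout, since the interval in vehicle replicate 1 (4.37 to 50.9, from 4 counts of Mat1a) did not overlap that in vehicle replicate 2 (1.42 to 4.24). Gnmt ranged from 1.22 to 6.67 per 100 Alb counts in vehicle replicate 2 and the treated tumors and from 43.3 to 113 in the other vehicle tumors, while its own counts stayed between 13 and 21. Bhmt, Mat1a and Alb were thus lowest in the same 3 tumors, vehicle replicates 1, 3 and 4, and the part of any liver-type RNA in the higher Bhmt and Mat1a of treated tumors was not tested.

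**Figure D3:**
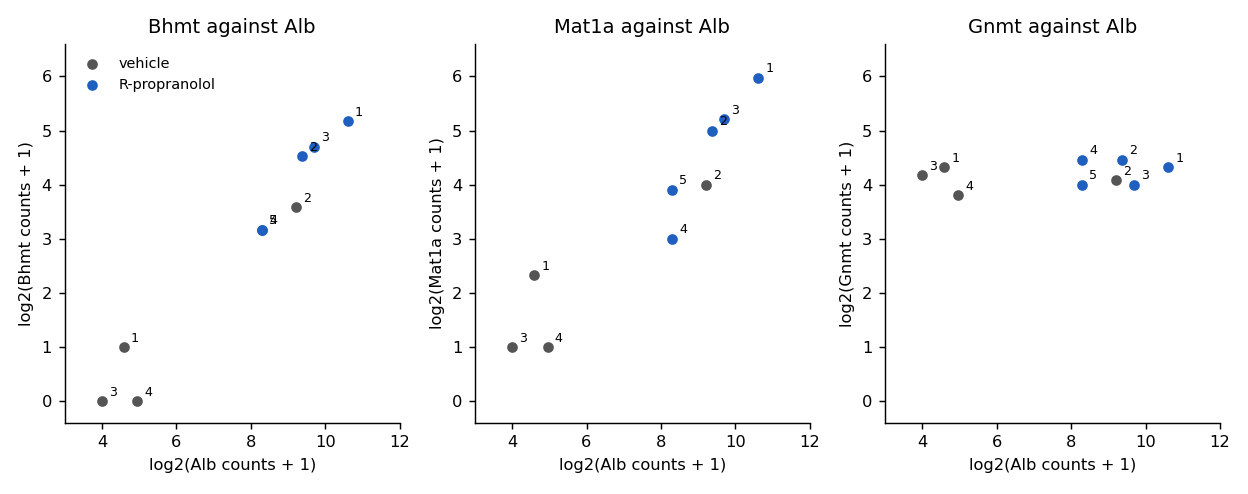
Counts of Bhmt, Mat1a and Gnmt (vertical axes) against counts of Alb (horizontal axes), both as log2 of counts plus 1, in 4 vehicle and 5 R-propranolol tumors numbered by replicate. Bhmt and Mat1a climb with Alb and vehicle replicate 2 lies among the treated tumors, while Gnmt stays between 13 and 21 counts.

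Of 11 kidney tubule genes, 1 to 5 had counts in a tumor and their sum was at most 3.10 CPM, and Slc22a6, Kap, Umod and Nphs1 were at 0 in every tumor. Of 11 pancreatic acinar genes, 2 to 6 had counts, with sums of 9.91 to 25.2 CPM, most of it Cela1 (mean 20.3 CPM). The ones with enough counts for the test, Slc12a1 of the kidney and Cela1 and Pnlip of the pancreas, had lower means in treated tumors, but that of Pnlip was higher without R-propranolol replicate 5 (log2 fold change -0.09 with it and 0.13 without it). Groups did not overlap for Slc12a1, with at least 1.90 CPM in vehicle and at most 1.84 CPM in treated tumors. The same held for Cela1 (23.0 and 22.4 CPM), beside 0.626% of all genes in this direction.

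Genes around the loop were taken from 6 lists that name the steps on either side of the members. Of 67 such genes 60 were tested, and 39 (65%) had a higher mean in treated tumors, beside 54.3% of all genes. Without R-propranolol replicate 5 the number was 30 of 60. The share of all genes that were higher was not counted in that setting, where their median log2 fold change was 0.012. With all tumors the median log2 fold change of the 60 genes was 0.08, against 0.03 for all genes. With library size in place of TMM, 21 of the 60 were higher and the median of all genes was -0.10. None passed after adjustment with edgeR, DESeq2 or limma-voom, and with edgeR only Odc1 fell under 0.05 before adjustment.

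Folate and cobalamin enzymes, which feed Mtr, were higher for 8 of 17, with a median log2 fold change of -0.04. Mmachc, which processes cobalamin, had a log2 fold change of 0.998 with all tumors and -0.23 without R-propranolol replicate 5, where it reached 35.7 CPM against 3.96 to 5.79 CPM elsewhere. Mthfd2l, a mitochondrial folate enzyme, had -0.23 (-0.12 without that tumor), and Mmadhc, a cobalamin trafficking protein and the most abundant of the group, had 0.21 (0.019 without it).

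Betaine supply and use comprised 8 genes of which 4 were tested, 3 of them higher, with a median of 0.40 (1 higher and -0.05 without R-propranolol replicate 5). Chdh, choline dehydrogenase, which starts the oxidation of choline to the betaine that Bhmt uses, had a log2 fold change of 1.93 with all tumors and -0.76 without replicate 5. Its level there was 14.6 CPM against 0.237 to 1.31 CPM in the other 8 tumors. Sardh, sarcosine dehydrogenase and the most abundant gene of this group, had -0.26, and -0.019 without replicate 5, where it was at 19.8 CPM. Dmgdh, which oxidizes the dimethylglycine left by Bhmt and was singled out after its values were seen, had too few counts to be tested, with 0.00963 ± 0.0193 CPM (SD, n = 4) against 0.158 ± 0.145 CPM (SD, n = 5).

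Transsulfuration and cysteine use downstream of Cbs had 7 of 9 genes higher, with a median of 0.14 (3 higher and -0.02 without replicate 5). Suox, sulfite oxidase, had a log2 fold change of 1.16 (SE 0.54), with 0.39 (SE 0.17) left without replicate 5. Its lowest treated tumor (8.40 CPM) lay above its highest vehicle tumor (8.05 CPM), beside 0.633% of all genes in this direction. Gclc, the catalytic subunit for glutathione synthesis, had -0.036 (0.19 without replicate 5) and Ethe1, a mitochondrial sulfur dioxygenase, had -0.08 (-0.17). Cdo1, cysteine dioxygenase, was singled out after its values were seen because it had the largest value of the 60 genes, 3.30, and it had -1.68 without replicate 5.

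Methyltransferases that consume S-adenosylmethionine were higher for 13 of 17, with a median of 0.10, and for 11 with a median of 0.02 without replicate 5. Dnmt3a, a DNA methyltransferase, had 0.38 (SE 0.19), or 0.18 (SE 0.08) without replicate 5. Its lowest treated tumor (70.4 CPM) lay just above its highest vehicle tumor (69.9 CPM), beside 0.633% of all genes in this direction. Dnmt1, which maintains DNA methylation, had -0.28, and -0.039 without replicate 5, where it was at 59.6 CPM. Prmt1, the most abundant of the group and a protein arginine methyltransferase, had 0.0097 (0.042 without replicate 5).

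Removal of S-adenosylhomocysteine and adenosine, beside Ahcy itself, had 2 of 4 genes higher. Adk, adenosine kinase, had 0.52 with all tumors and 0.0089 without replicate 5. Ada, adenosine deaminase, had -0.41 (-0.19 without it), and Ahcyl1, a relative of Ahcy, had -0.09 (0.07 without it).

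Polyamine synthesis and methionine salvage, which draw on S-adenosylmethionine and return methionine, had 6 of 9 tested genes higher with a median of 0.11, or 6 with a median of 0.0057 without replicate 5. Odc1, ornithine decarboxylase, had 135 ± 17.7 CPM (SD, n = 4) in vehicle tumors and 171 ± 26.3 CPM (SD, n = 5) in treated tumors. Its log2 fold change was 0.34 (SE 0.14), or 0.24 (SE 0.10) without replicate 5, and the groups overlapped. Mtap, which starts the salvage of methionine, had -0.24 (0.0057 without replicate 5), and Sat1, which acetylates polyamines, had 0.08 (0.27 without it). Amd1 and Amd2, near-identical copies of the decarboxylase that commits S-adenosylmethionine to polyamines, were listed at 0 in every tumor, and reads they share cannot be assigned to either.

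**Figure D4:**
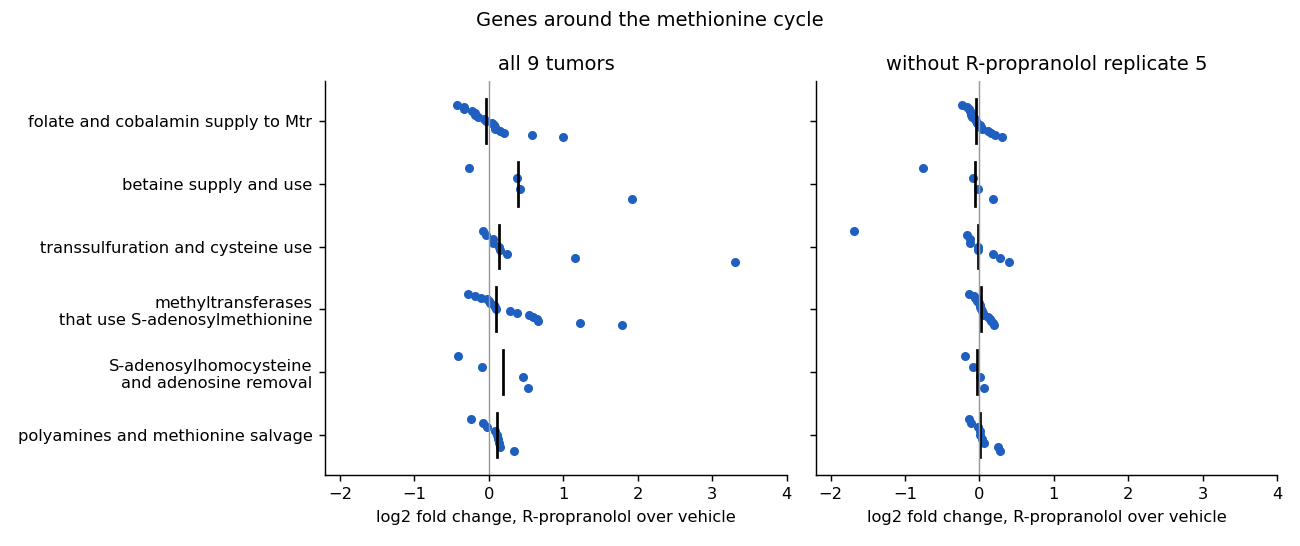
Log2 fold change of each tested gene in 6 lists around the methionine cycle, R-propranolol over vehicle, with all 9 tumors (left) and without R-propranolol replicate 5 (right). Points are genes and black bars are medians of a list. Most values lie near 0. Of the points far to the right with all tumors, Cdo1 at 3.30 and Chdh at 1.93 lie left of 0 without that tumor. As3mt at 1.78, Hnmt at 1.23 and Suox at 1.16 move closer to 0 but stay right of it, at 0.013, 0.16 and 0.39.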

How the data were processed

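Per the labels, libraries were made at Novogene Corporation with the NEBNext Ultra kit, and the submitters' processing notes name STAR, HTSeq, edgeR and mm10. The deposited values are raw counts per gene symbol, without normalization. No source used here gives their versions, the annotation, the strand setting or a batch. FPKM and CPM were computed here from TMM-scaled library sizes, FPKM with merged exon lengths of GENCODE M21 (GRCm38), where 23336 of 24421 symbols (95.6%) had 1 place. Groups were compared over 13901 genes kept by filterByExpr (minimum count 10, minimum total 15) with the quasi-likelihood test of edgeR 4.0.16 in R 4.3.3 and Benjamini-Hochberg adjustment. The fit was also run on simulated counts. These held no tumor like R-propranolol replicate 5, so they cannot show how the test behaves with such a tumor. Intervals of ratios are exact binomial at 95%.

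Members, lists and tests were chosen with earlier results of these data known. Named genes are the 9 members, the 5 tested genes most like Bhmt and Mat1a, in each list around the cycle the smallest p among higher and among lower genes and the most abundant gene, and the 4 hepatocyte genes of highest mean CPM. Alternatives were size factors or the Wald test of DESeq2 1.42.0, library size alone, voom of limma 3.58.1 with quality weights, other count filters (none, or 1 CPM in 4 tumors), other gene lengths, a sum of vehicle replicates 1 and 2, a replicate block, and dropping each tumor in turn. No source says whether tumors came from separate cultures of the line, and p-values measure only the spread between these tumors. Tumor volumes, protein staining and cell culture experiments were not analysed here.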

Additional observations from a re-analysis of the deposited data

Results flagged for a closer look

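In 16 of 70 groups of values that were looked at, 1 tumor lay far from the others of its group by Dixon's criterion. Chance meets it in about 1 of 20 groups when values are independent and normal. The groups here share the same tumors, and Apoa1 and Ahsg were named for their likeness to Bhmt. That rate is therefore no baseline for these groups, and no excess is read from their number. Bhmt (0.424 CPM), Bhmt2 (0.0385 CPM, a single count), Apoa1 (2.24 CPM) and Ahsg (6.40 CPM) were high in vehicle replicate 2 alone, as was Adk (24.1 CPM), whereas Dnmt3a was low there (65.4 CPM). Arg1, an enzyme that hepatocytes and some macrophages express, was high in vehicle replicate 3 (20.7 CPM) and in R-propranolol replicate 2 (474 CPM).

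R-propranolol replicate 5 stood alone for Mat2b (69.4 CPM), Mmachc (35.7 CPM), Mmadhc (119 CPM), Chdh (14.6 CPM), Suox (45.1 CPM), Dnmt3a (135 CPM) and Adk (68.8 CPM), all high, and for Mtap (52.3 CPM), which was low. The skeletal muscle and adipocyte genes of this tumor were high too, and their part in these values was not tested.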

How the results depend on the processing

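Bhmt and Mat1a kept a positive log2 fold change in every setting in which they could be fitted, between 2.24 and 5.32 for Bhmt and between 2.12 and 3.70 for Mat1a. The 5.32 was without vehicle replicate 2, where the vehicle counts of Bhmt were 1, 0 and 0. Too few counts remained to fit Bhmt without R-propranolol replicate 1, 2 or 3, and to fit Bhmt, Mat1a and Gnmt with at least 1 CPM in 4 tumors. Mat2b turned to -0.078 with library size alone, -0.15 with limma-voom and -0.12 without R-propranolol replicate 5 (-0.12 to 0.20 over all left-out tumors). Mtr turned to -0.028 with library size alone, -0.078 with limma-voom and -0.024 without R-propranolol replicate 5 (-0.024 to 0.27). Ahcy turned to 0.00087 with DESeq2 and 0.056 with limma-voom, and ranged from -0.099 to 0.053 over left-out tumors. The number of members with a higher mean was 3 with library size alone and 2 of 4 with the filter of 1 CPM, and for genes around the cycle it was 21 with library size alone and 27 with the replicate block. The number of genes called was 2 with DESeq2 and 0 otherwise, while the number at an unadjusted p under 0.05 ran from 100 to 838, and from 103 to 737 when 1 tumor was left out. Per length, Bhmt over Mtr in treated tumors was 11.5% with coding transcripts, and Mat2b over Mat2a was 20.3% with the longest transcript and 24.3% with coding transcripts in vehicle tumors and 21.5% in treated tumors. The causes of these shifts were not tested, apart from gene length, which the setting itself changes.

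The labels name no pairing of tumors by replicate numbers 1 to 4. Deviations of same-numbered tumors from their group means correlated at -0.28, 0.09, -0.64 and 0.53. Without differently numbered tumors beside them, these values cannot show whether tumors were paired. With the replicate block over 8 tumors, 0 genes were called and 268 had an unadjusted p under 0.05, and Mat2b was -0.12, Ahcy 0.044, Mtr -0.031, Bhmt 3.40 and Mat1a 2.82. At 0 to 62 counts, Bhmt, Bhmt2, Mat1a, Gnmt and Cbs are limited by depth.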
